A study of Mus musculus with 12 samples.

Results

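Nuclear genes for the respiratory chain and ATP synthase were followed through 4 groups of dissected structures of the embryonic mouse kidney. A gene was included when a probe set of the array was annotated to it alone and its symbol began with Nduf, Sdh, Uqcr, Cox or Atp5 in the form used for the subunits of complexes I, II, III, IV and ATP synthase. This rule gave 68 of the 8251 genes that had a probe set of their own: 28 of complex I, 4 of complex II, 7 of complex III, 15 of complex IV and 14 of ATP synthase. They had 93 probe sets between them, and each of the 18 genes with several is described by the probe set with the highest mean over the 12 arrays. Except for Cox7a2l, which is best known for joining complexes III and IV into supercomplexes, the genes encode subunits or tissue isoforms of subunits. Ndufb4, Ndufs5, Ndufs6, Ndufa11 and Cox7c had only probe sets shared with other symbols and were not used.

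RNA came from wild-type Swiss Webster embryos of unknown sex at E14.5 (Theiler stage 22) and was hybridized to Affymetrix MG_U74Av2 arrays after 2 rounds of T7 amplification, with 3 arrays a group. Renal vesicles, the first epithelial stage of the nephron (replicates 2, 3 and 4), and S-shaped bodies, a later stage with a proximal-distal axis (replicates 1, 2 and 3), were each amplified from pools of 20 structures. S-shaped bodies amplified as 1 structure without pooling (replicates 3, 4 and 5) and unpooled collecting duct, the branched epithelium that derives from the ureteric bud and served as the reference (replicates 1, 2 and 3), made up the other groups. Since the labels leave unsaid which samples share an embryo, p-values only set group differences against the scatter of these samples, which may be technical.

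The respiratory chain passes electrons from NADH (complex I) and succinate (complex II) through ubiquinone, complex III and cytochrome c to oxygen at complex IV, and ATP synthase uses the proton gradient that complexes I, III and IV build up. Complexes I, III, IV and ATP synthase combine subunits encoded in mitochondrial DNA with subunits encoded in the nucleus, and only nuclear genes are described here. Mature tubules of the kidney are rich in mitochondria, whereas the structures sampled here are early stages of nephron formation.

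Levels are log2 intensities after quantile normalization, with 7.22 intensity units added before the logarithm, so that a value of 2.85 marks a signal at or below 0. Levels of different genes are not comparable on these arrays, and only differences of 1 gene between groups were read. A gene counted as rising or falling where limma gave an adjusted p under 0.05 over the 9316 probe sets tested. Of the 68 genes, 62 passed the filter on low signal in the fit of collecting duct with both pooled groups, 65 in the comparison of single with pooled S-shaped bodies, and 63 in that of single S-shaped bodies with collecting duct. In the first of these fits, Ndufa12, Uqcr11, Cox6a2, Cox7a1, Cox8a and Atp5e were not tested. In tissue samples of this kind, fewer cells of a type and less RNA per cell cannot be told apart.

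Most but not all defining markers followed the labels. Krt19, a marker of ureteric epithelium, was at 11.31 ± 0.18 in collecting duct (SD, n = 3) and not above background on any array of the other groups. Wt1, one of the genes named by the study, was at 8.81 ± 1.06 in renal vesicles, 8.17 ± 0.26 in pooled and 8.62 ± 0.30 in single S-shaped bodies, against 4.78 ± 0.13 in the reference (SD, n = 3 each). Wnt4 and Pax8, the other genes it named, were at 7.62 and 8.32 in renal vesicles and at 6.14 and 5.37 in collecting duct, where both were above background on all arrays. In S-shaped bodies Wnt4 was not above background on any array, and Pax8 was at 5.58 in pooled and 4.50 in single structures. The ureteric markers Krt7 and Gata3 were at 11.11 and 8.61 in collecting duct, but also at 9.10 and 7.83 in pooled and 8.87 and 7.90 in single S-shaped bodies. The 10 early nephron markers summed to 3359 to 7177 in renal vesicles, 5155 to 5730 in pooled and 4835 to 5644 in single structures and 169 to 235.1 in collecting duct. For 10 ureteric bud and collecting duct markers the sums were 168.5 to 602.6, 648.6 to 1098, 472.6 to 1666 and 8767 to 9854. Ret, Wnt11 and Aqp2 were not above background on the collecting duct arrays, and Pax2 was not above background on any array.

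Endothelial, stromal and red blood cell markers were high in both S-shaped body groups, some RNA control ratios set the pooled group apart, and signal was low in the single group. These values stand beside every S-shaped body result that follows. The summed level of 8 endothelial markers ran from 5797 to 6919 in pooled and from 5540 to 7563 in single S-shaped bodies, from 1415 to 3079 in renal vesicles and from 27.86 to 70.46 in collecting duct, where 7 of the 8, Cdh5 and Pecam1 among them, were above background on no array. For 8 stromal markers the ranges were 3797 to 5071, 5433 to 7323, 336.6 to 1747 and 37.48 to 69 in the same order. For 6 red blood cell markers they were 5246 to 6990, 1197 to 4712, 117.9 to 814 and 134.2 to 190.9. The 7 macrophage and leukocyte markers, with Ptprc, Cd68 and Fcer1g above background on no array, summed to between 71.59 and 254.4 in all groups, and the 9 muscle markers, with Tnnt2, Tnnc1 and Myh7 above background on no array, ran from 431 to 617.9 in pooled and 766.6 to 974.5 in single S-shaped bodies against 193 to 284.9 in renal vesicles and 211.4 to 236.2 in collecting duct. The ratio of 3′ to middle beta-actin control probe sets was 3.22 to 3.92 in pooled S-shaped bodies and 6.29 to 10.4 on all other arrays, and the 3′ to 5′ ratio of Gapdh was 21.2 to 28.3, above every other array, the lowest of which stood at 8.23. Single S-shaped bodies had the lowest deposited medians, 3.484 to 9.477 intensity units against 14.28 to 61.94 elsewhere. The part of these differences in the results below was not tested.

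The mean level of the 68 genes was nearly the same in renal vesicles, at 7.03 ± 0.10, and collecting duct, at 7.02 ± 0.13, (SD, n = 3). In S-shaped bodies it was 7.77 ± 0.10 for pools and 7.81 ± 0.06 for single structures (SD, n = 3). On single arrays the mean was 6.96, 6.99 and 7.15 in renal vesicles, 7.08, 7.10 and 6.86 in collecting duct, 7.78, 7.67 and 7.85 in pooled and 7.74, 7.80 and 7.87 in single S-shaped bodies. All 6 S-shaped body arrays therefore lay above the 6 others. The same separation held for complex I, complex III and ATP synthase, whereas in complex II a single S-shaped body array had the lowest mean of all 12 arrays, at 7.55, and in complex IV the groups overlapped. In complex I the group means were 7.01 ± 0.17 in renal vesicles, 7.09 ± 0.15 in collecting duct, 7.91 ± 0.10 in pooled and 7.98 ± 0.07 in single S-shaped bodies. In complex IV they were 6.51 ± 0.23, 6.43 ± 0.02, 6.78 ± 0.26 and 6.78 ± 0.15 in that order, so that pooled S-shaped bodies and renal vesicles did not differ beyond their spread.

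**Figure D1:**
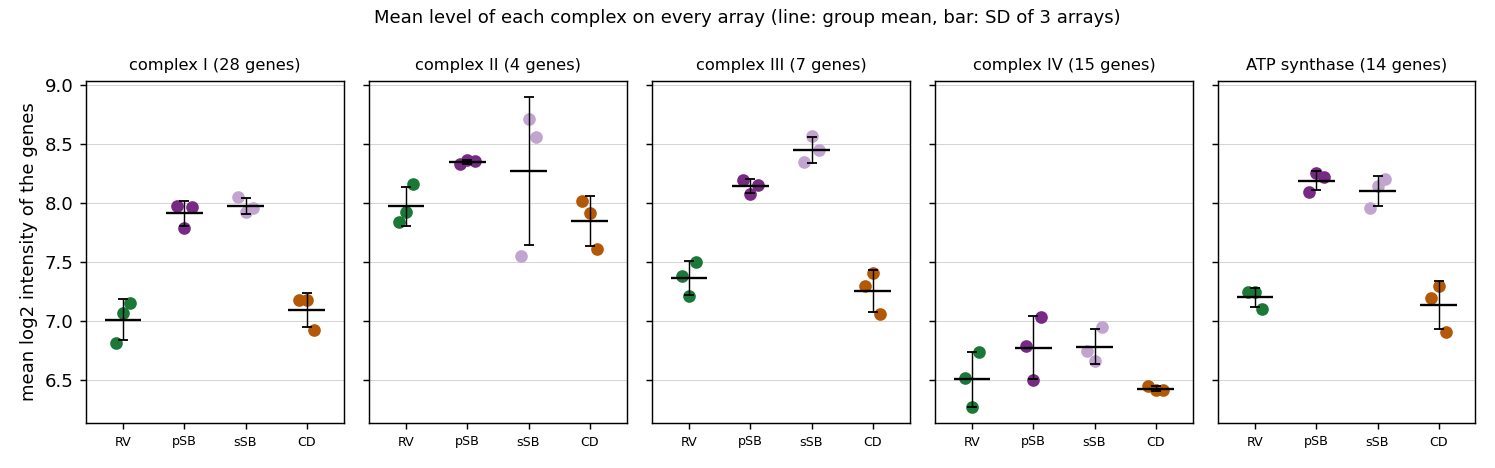
Mean log2 intensity of the genes of each complex (vertical axis) on every array of renal vesicle (RV), pooled S-shaped body (pSB), single S-shaped body (sSB) and collecting duct (CD), with a line at the group mean and a bar of 1 SD over 3 arrays. Relative to all probe sets, the S-shaped body arrays lie above the others in complex I, complex III and ATP synthase and overlap them in complexes II and IV.

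Pooled S-shaped bodies exceeded renal vesicles in 33 of the 62 genes tested, and no gene was lower at the threshold. Over all probe sets tested, 17.5% were higher and 19.2% lower in this comparison. The median change of the 62 genes was 0.54 and that of all probe sets was -0.03 on the log2 scale. By complex, 16 of 27 genes tested rose in complex I, 1 of 4 in complex II, 3 of 6 in complex III, 5 of 12 in complex IV and 8 of 13 in ATP synthase. Under scaling to the 75th percentile in place of quantile normalization, 27 genes rose and 3 fell: Atp5a1, Ndufv1 and Uqcrc1.

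Against collecting duct, 32 of 62 genes were higher and 3 lower in pooled S-shaped bodies, against 18.2% and 20% of all probe sets, with a median of 0.58 for these genes and -0.07 for all. Single S-shaped bodies had 33 of 63 genes higher and 2 lower than collecting duct, against 16% and 17.9% of all probe sets, with medians of 0.65 and -0.07. Both comparisons share the collecting duct arrays. The single S-shaped body directions are relative to all probe sets: on the deposited scale, where the median probe set was lower by 2.56 log2 units in single S-shaped bodies, 1 gene was higher and 49 were lower, and 12 were higher and 0 lower once that shift was removed before the test.

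Renal vesicles and collecting duct differed in 5 of the 62 genes, 2 higher and 3 lower in renal vesicles, where 12.3% and 11.6% of all probe sets were called. At an unadjusted p under 0.05 the count was 16 of 62, beside 3398 of all 9316 probe sets, and the median change was 0.06 against -0.02 for all probe sets. Scaling to the 75th percentile gave 8 higher and 2 lower, and the deposited scale, with a median shift of -1.39, gave 1 higher and 54 lower. The split between higher and lower genes in this comparison therefore rests on the scaling.

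Comparing single with pooled S-shaped bodies shows how far the levels measured in 1 structure match those of a pool. No gene was called by limma among 65 tested, against 0.247% of all probe sets higher and 0.15% lower, and 10 had an unadjusted p under 0.05, of which 8 were higher in single structures, beside 1654 of all 9316 probe sets (783 higher). The median change was -0.02 for these genes and -0.04 for all probe sets. The 95% confidence interval of the difference lay within 1 log2 unit of 0 for 42 of the 65 genes and within 0.5 for 12, so that changes of over 2-fold lay outside the interval for those 42 genes but not, in at least 1 direction, for the others.

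**Figure D2:**
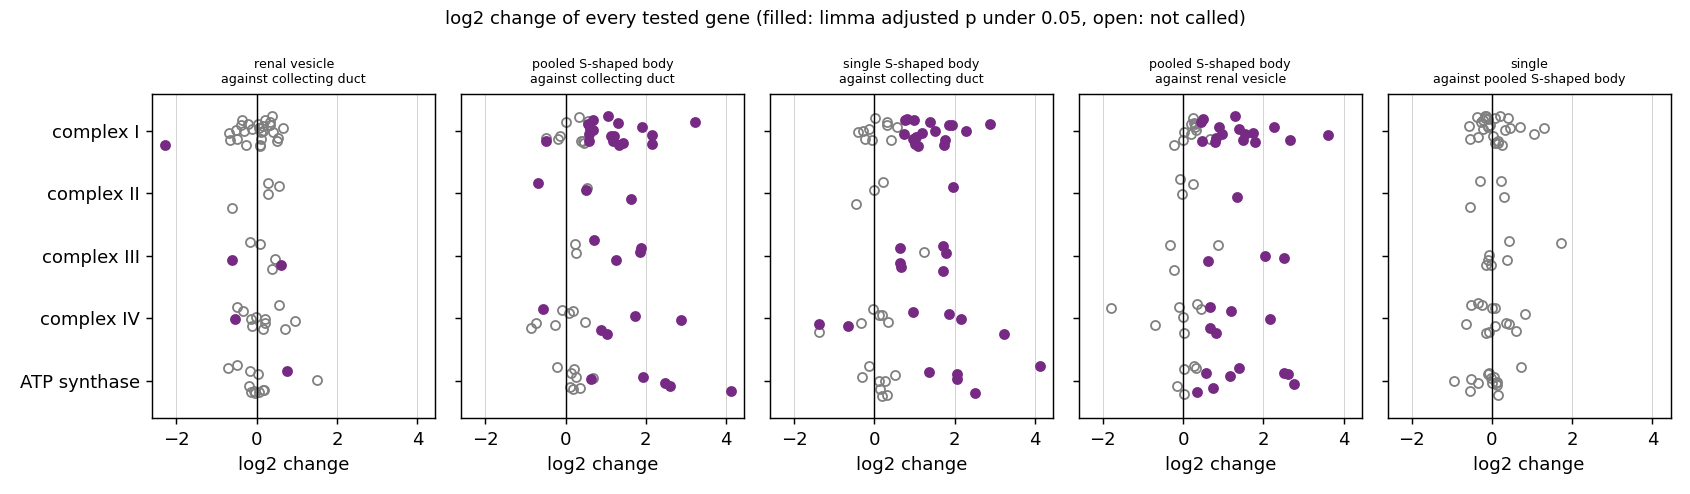
Log2 change of each tested gene (points, by complex) in the 5 comparisons, where filled points passed an adjusted p of 0.05 in limma and open points did not. Relative to all probe sets, filled points lie mostly to the right in the comparisons of S-shaped bodies with renal vesicle or collecting duct, 5 are filled for renal vesicle against collecting duct and none for single against pooled S-shaped bodies.

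The comparison of pooled S-shaped bodies with renal vesicles and that of single S-shaped bodies with collecting duct have no array in common, which allows them to be set side by side. Among the 62 genes tested in both, 33 and 32 were higher and 27 were higher in both, which is 81.8% of the first list and 84.4% of the second. For all 9005 probe sets tested in both the counts were 1605 and 1429, with 766 in common, or 47.7% and 53.6% of each list, and 8.51% of the probe sets tested. A larger part of these genes than of all probe sets was called in each comparison, which by itself raises their percentages in common. In a comparison of the 6 S-shaped body arrays with the 6 others, 26 of 62 genes had every S-shaped body array above every other array, against 9% of all probe sets, and 0 had all 6 below, against 9.66%. These 26 comprised 13 of complex I, Sdhb of complex II, Uqcrb, Uqcrh and Uqcrq of complex III, Cox5b, Cox6a1, Cox7a2 and Cox7b of complex IV and Atp5j, Atp5k, Atp5l, Atp5md and Atp5mpl of ATP synthase.

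**Figure D3:**
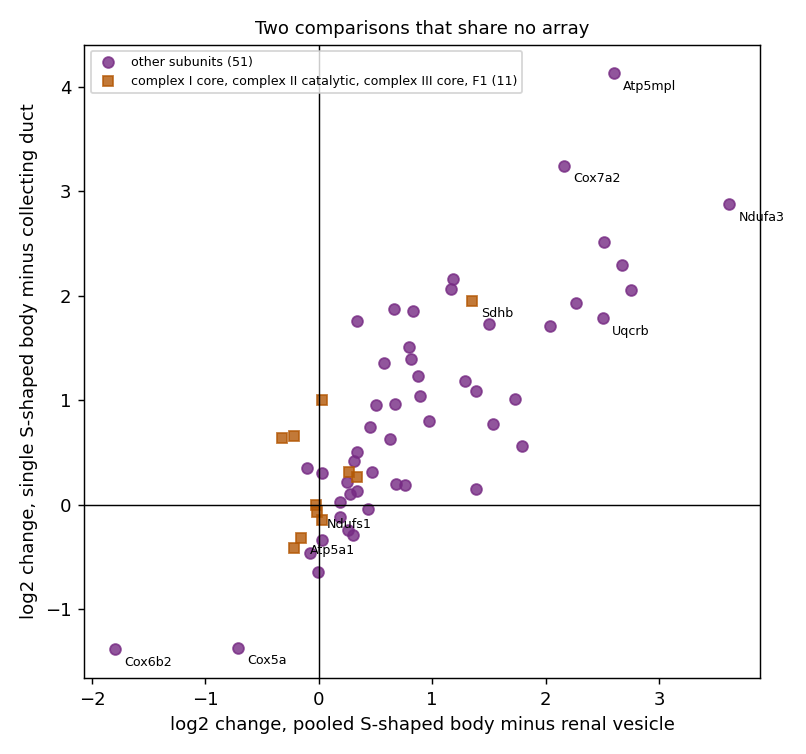
Log2 change of pooled S-shaped bodies minus renal vesicles (horizontal) against single S-shaped bodies minus collecting duct (vertical) for the 62 genes tested in both, which share no array; squares mark 11 core, catalytic or F1 subunits. Relative to all probe sets, 27 genes were called higher in both, and all squares except that of Sdhb lie within 0.5 log2 units of 0 on the horizontal axis.

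Promoters of the genes were read for motifs of factors known to bind upstream of respiratory chain genes: nuclear respiratory factor 1, ETS factors such as GABP, and YY1. RefSeq promoters (build GRCm38.p6, 250 bases before to 50 after the start, both strands searched) were matched for 55 of the 68 genes. The nuclear respiratory factor 1 motif GCGCATGCG was found in 7 of 55 promoters (12.7%) against 1.95% of 27025 genes, in Atp5g2, Atp5k, Atp5l, Cox6a1, Ndufa8, Uqcr11 and Uqcrc1. With a free base within it (GCGCANGCG, which contains the former), the counts were 14 of 55 (25.5%) and 7.03%. The ETS motif CCGGAAGT was found in 4 of 55 (7.27% against 4.31%), namely Cox8a, Ndufs3, Uqcr11 and Uqcrh, and the YY1 motif AAGATGGCG in 5 of 55 (9.09% against 1.64%), namely Atp5j, Atp5j2, Ndufa9, Ndufc1 and Ndufs4. The 6 stretches that follow show the motif with the free base in capitals, read on either strand, in genes that rose from renal vesicle to pooled S-shaped body (Atp5k, Cox6a1, Ndufa5, Ndufa8) and in genes that did not pass that test (Atp5g2, Sdhd). The Ndufa8 stretch ends in its stricter match, which stays in lower case there.
Atp5k, chr5:108434421-108434469, minus strand: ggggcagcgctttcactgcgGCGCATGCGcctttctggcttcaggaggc
Cox6a1, chr5:115349092-115349140, minus strand: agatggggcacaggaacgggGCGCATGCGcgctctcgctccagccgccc
Ndufa5, chr6:24527688-24527736, minus strand: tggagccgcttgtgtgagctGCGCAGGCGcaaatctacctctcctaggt
Ndufa8, chr2:36049339-36049387, minus strand: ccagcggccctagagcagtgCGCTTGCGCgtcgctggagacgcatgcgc
Atp5g2, chr15:102671061-102671109, minus strand: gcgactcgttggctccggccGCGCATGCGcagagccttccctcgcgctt
Sdhd, chr9:50603900-50603948, minus strand: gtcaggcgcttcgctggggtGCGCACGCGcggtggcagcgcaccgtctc
Of the 55 genes, 27 rose from renal vesicle to pooled S-shaped body and 28 did not pass or were not tested. The motif with the free base stood in 6 of the 27 and 8 of the 28, its stricter form in 4 and 3, the ETS motif in 0 and 4, and the YY1 motif in 3 and 2. Of the 4 genes with the ETS motif, Cox8a and Uqcr11 were not tested in that comparison, so its 0 and 4 do not contrast tested genes. Uqcr11 also counts among the 28 for both forms of the nuclear respiratory factor 1 motif. Apart from the ETS motif, the 27 genes and the 28 others carried these motifs at like counts in this window.

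In complex I the genes that rose from renal vesicle to pooled S-shaped body were all accessory subunits, which surround the catalytic core. In that comparison, 16 of 23 accessory subunits tested rose, with a median change of 0.81, and 0 of 4 core subunits did, with a median of 0.01. This grouping by role, used below for complex III and ATP synthase too, was made after the values were seen and is a description. Over all probe sets, 17.5% rose from renal vesicle to pooled S-shaped body, which stands beside the role counts here and below. In single S-shaped bodies against collecting duct, 16 of 23 accessory subunits and 1 of 4 core subunits were higher, against 16% of all probe sets. The medians of accessory and core subunits were 1.01 and 0.12. With 4 core subunits tested, counts of 0 and 1 lie near those shares.

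Ndufa3, an accessory subunit of the membrane arm, had the largest change of the 62 genes from renal vesicle to pooled S-shaped body. Its level was 6.03, 5.81 and 5.57 in renal vesicles, 9.53, 9.19 and 9.54 in pooled and 9.33, 8.58 and 9.31 in single S-shaped bodies, and 6.25, 6.28 and 6.06 in collecting duct. Every S-shaped body array was thus more than 2 log2 units above every other array. Pooled S-shaped bodies were 12.3-fold above renal vesicles (log2 change 3.62, SE 0.19, adjusted p = 2.19e-06 in limma) and 9.34-fold above collecting duct (3.22, SE 0.19, adjusted p = 5.05e-07). Its other probe set rose as well, by 2.54 and 2.40 log2 units in the same comparisons. The 2 probe sets are of the type that the manufacturer marks as matching a sequence family, so related transcripts could add to both.

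Ndufa5, an accessory subunit of the matrix arm, was at 7.90, 7.48 and 8.34 in renal vesicles, 10.21, 10.03 and 10.29 in pooled and 9.90, 9.92 and 10.07 in single S-shaped bodies, and 8.52, 8.21 and 7.36 in collecting duct. All S-shaped body arrays lay above the others, with log2 changes of 2.27 (SE 0.29, adjusted p = 0.000159, pooled against renal vesicle) and 1.93 (SE 0.28, adjusted p = 0.00115, single against collecting duct, both limma). Ndufb6, of the far end of the membrane arm, read 3.81, 5.70 and 6.10 in renal vesicles, 7.85, 7.54 and 8.22 in pooled and between 7.90 and 8.15 in single S-shaped bodies, and 6.07, 5.73 and 5.37 in collecting duct. The groups were apart again, with a wide spread in renal vesicles, and the change from them to pooled S-shaped bodies was 2.67 (SE 0.49, adjusted p = 0.00168 in limma). Its other probe set did not show this: its changes were 0.07 in that comparison, -0.04 for pooled and 0.28 for single S-shaped bodies against collecting duct, so that the rise of Ndufb6 rests on 1 of 2 probe sets.

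Ndufc1, also of the membrane arm, was at 7.28, 7.25 and 7.58 in renal vesicles, 8.96, 8.95 and 8.82 in pooled and 8.38, 8.30 and 8.41 in single S-shaped bodies, and 7.63, 7.80 and 7.36 in collecting duct. It rose by 1.54 from renal vesicles to pooled S-shaped bodies (SE 0.17, adjusted p = 6.25e-05 in limma), and its single structures all lay below the pooled ones, at -0.54 (adjusted p = 0.133). Ndufa7 and Ndufb5 rose in all 3 comparisons of S-shaped bodies with renal vesicle or collecting duct, by 1.28 and 0.89 against renal vesicles. So did Ndufa8, Ndufb9, Ndufa13, Ndufb3, Ndufb8, Ndufb11, Ndufb2 and Ndufv3, with changes between 0.45 (Ndufb2) and 1.73 (Ndufb3) from renal vesicle to pooled S-shaped body. Ndufa2 rose against both renal vesicle and collecting duct in pooled structures, by 0.47 and 0.55, Ndufa9 against collecting duct, by 0.69, and Ndufa6 against collecting duct in pooled and single structures, by 1.18 and 1.87.

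The core subunits of complex I gave another picture. Ndufs1, which carries iron-sulfur clusters of the NADH-oxidizing module, was at 8.76, 8.90 and 8.67 in renal vesicles, 8.80, 8.83 and 8.67 in pooled and 8.69, 8.70 and 8.66 in single S-shaped bodies, and 8.94, 8.68 and 8.62 in collecting duct. All groups overlapped, and the change from renal vesicle to pooled S-shaped body was -0.01 with a 95% interval from -0.32 to 0.29. Ndufv1, which binds NADH and flavin, was the core subunit that fell, by 0.49 in pooled S-shaped bodies against collecting duct (SE 0.14, adjusted p = 0.0183 in limma). It read 8.60, 8.45 and 8.69 in the pools, below 9.02, 9.13 and 9.07 in collecting duct. Ndufs3 did not pass in any comparison, at 0.26 (95% interval -0.11 to 0.64) from renal vesicle to pooled S-shaped body. Ndufv2, another iron-sulfur subunit, was higher in single S-shaped bodies than in collecting duct by 1.00 (SE 0.23, adjusted p = 0.0100 in limma), with its other probe set at 2.13 (adjusted p = 0.000133), and did not pass from renal vesicle to pooled S-shaped body (0.03).

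Other accessory subunits departed from the common pattern. Ndufa10, an accessory subunit related to nucleoside kinases, did not exceed background on any renal vesicle array but did so on all collecting duct and pooled S-shaped body arrays. It read 2.85, 3.90 and 2.85 in renal vesicles, 5.04, 5.18 and 4.78 in pooled and 7.62, 5.82 and 4.70 in single S-shaped bodies, and 5.36, 5.71 and 5.37 in collecting duct. Renal vesicles were thus the low group, with collecting duct at least 1.91-fold (adjusted p = 0.00059 in limma) and pooled S-shaped bodies at least 1.37-fold above them (adjusted p = 0.00162). Each such bound is set against the background level of the dimmer group in place of its unmeasured signal. Ndufa10 passed the signal filter only through the groups with signal, as renal vesicles were at or near the floor. Its adjusted p-values, with its call among the 5 genes between renal vesicles and collecting duct, therefore add no support to the values. Ndufb10, of the membrane arm, was at 6.02, 5.98 and 6.16 in pooled but 7.09, 7.45 and 7.54 in single S-shaped bodies, and at 5.83, 5.64 and 5.34 in collecting duct. Single structures lay above pooled ones on every array, at 1.31 (SE 0.24), but the adjusted p was 0.0651, whereas their rise against collecting duct passed, at 1.76 (SE 0.27, adjusted p = 0.00155 in limma), with the other probe set at 3.02 (adjusted p = 0.000485). That other probe set, of the sequence family type, failed the signal filter in the fit without single S-shaped bodies. It was tested only through the group where it was high and gives no separate support. Ndufa1, Ndufb7, Ndufc2 and Ndufs4 did not pass in any comparison, and Ndufa12 was above background on no array.

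Complex II, which also serves the tricarboxylic acid cycle as succinate dehydrogenase, split between its subunits. Sdhb, the iron-sulfur subunit, read 8.18, 8.19 and 8.82 in renal vesicles, 9.76, 9.67 and 9.82 in pooled and 9.80, 10.23 and 10.15 in single S-shaped bodies, and 8.33, 8.31 and 7.69 in collecting duct. Both S-shaped body groups were apart from the others, 2.55-fold above renal vesicles in pools (log2 change 1.35, SE 0.21, adjusted p = 0.000629 in limma) and 3.86-fold above collecting duct in single structures (1.95, SE 0.22, adjusted p = 0.000346). Sdhc, a membrane anchor, went the other way against collecting duct: it fell by 0.69 in pooled S-shaped bodies (SE 0.23, adjusted p = 0.0346), and was lower on every array of renal vesicles (-0.62, adjusted p = 0.0766) and single S-shaped bodies (-0.46, adjusted p = 0.0745). Sdhd, the other anchor, was 0.51 higher in pooled S-shaped bodies than in collecting duct (SE 0.18, adjusted p = 0.0401). Sdha, the flavoprotein, did not pass; its single S-shaped body arrays read 2.85, 5.74 and 5.51, and without the first of them (replicate 3) it was 0.92 above collecting duct with an adjusted p of 0.0417, where all 3 arrays gave -0.00.

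In complex III the small subunits rose and the core proteins did not, from renal vesicle to pooled S-shaped body: 3 of 4 small subunits tested were higher, with a median change of 1.45, and 0 of 2 core proteins, with a median of -0.27. Uqcrb, a small subunit near the ubiquinone site, was at 6.78, 6.63 and 6.99 in renal vesicles, 9.41, 9.33 and 9.18 in pooled and 9.00, 9.19 and 9.44 in single S-shaped bodies, and 7.61, 7.57 and 7.09 in collecting duct. The 4 groups fell in 3 levels, since renal vesicles also lay below collecting duct, by 0.62 (SE 0.18, adjusted p = 0.0300 in limma). Pooled S-shaped bodies were 5.68-fold above renal vesicles (log2 change 2.50, SE 0.18, adjusted p = 7.45e-06) and single ones 3.45-fold above collecting duct (1.79, SE 0.21, adjusted p = 0.000473). Uqcrq was at 7.62, 7.66 and 8.77 in renal vesicles, 9.98, 9.85 and 10.33 in pooled and 9.84, 9.80 and 10.05 in single S-shaped bodies, and no higher than 8.52 in collecting duct. It rose by 2.04 from renal vesicle to pooled S-shaped body (SE 0.29, adjusted p = 0.000314), and Uqcr10 by 0.63 (SE 0.16, adjusted p = 0.00889). Uqcrh, the hinge protein, was higher in pooled S-shaped bodies than in collecting duct by 1.25 (SE 0.32, adjusted p = 0.00998) and did not pass against renal vesicles, at 0.87.

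The core proteins of complex III were placed differently. Uqcrc1 was at 8.37, 8.43 and 8.43 in renal vesicles, 8.29, 8.08 and 7.90 in pooled and 8.39, 8.58 and 8.39 in single S-shaped bodies, and 7.96, 7.58 and 7.91 in collecting duct. Pooled S-shaped bodies were the group in which it was nearest to collecting duct, and it was higher than in collecting duct in renal vesicles (0.59, SE 0.16, adjusted p = 0.0217) and single S-shaped bodies (0.64, SE 0.19, adjusted p = 0.0302, both limma). Uqcrc2 passed in single S-shaped bodies against collecting duct only, at 0.65 (SE 0.17, adjusted p = 0.0174), and was 0.42 above pooled ones on every array (adjusted p = 0.129). Uqcr11 was at 2.85 on all collecting duct arrays and at 4.46, 4.74 and 4.52 in single S-shaped bodies, so it passed the signal filter only through the single group. Its call there (1.72, adjusted p = 0.00481 in limma), which is among the 33 genes counted higher, is therefore no support for a difference. It was above background on no array of either group, so no fold is given.

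**Figure D4:**
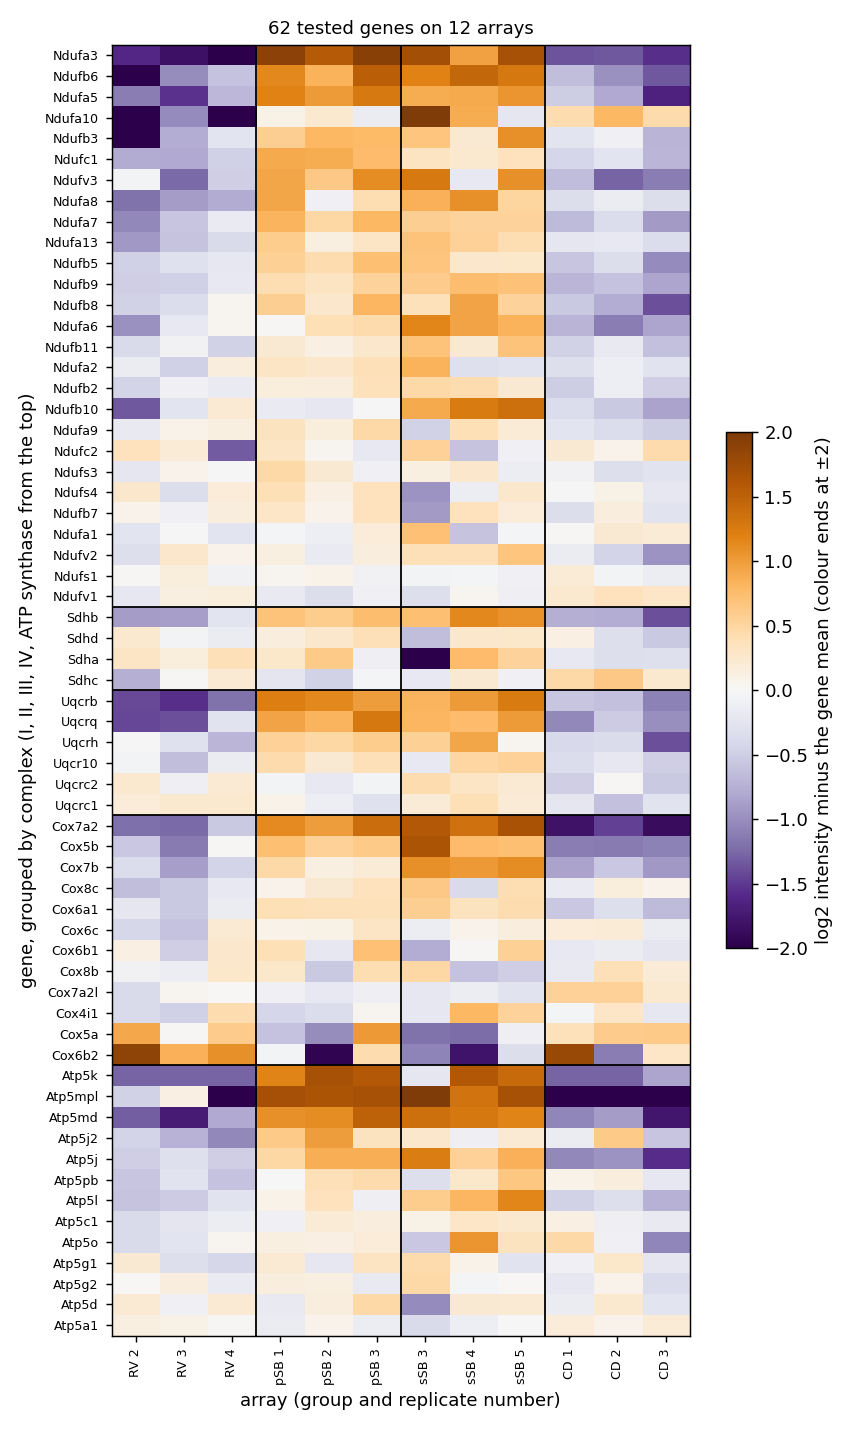
Log2 intensity of each tested gene (rows, by complex) on each of the 12 arrays (columns: RV renal vesicle, pSB pooled and sSB single S-shaped body, CD collecting duct) minus the gene's mean over the arrays, with colours ending at 2 log2 units either way. The 6 middle columns are mostly orange relative to all probe sets, with exceptions such as Ndufv1, Sdhc, Cox7a2l and Cox6b2.

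Complex IV had 5 of 12 genes higher in pooled S-shaped bodies than in renal vesicles, and its subunits include tissue isoforms. Cox7a2, the widely expressed isoform of subunit 7a, read 5.88, 5.84 and 6.55 in renal vesicles, 8.22, 8.07 and 8.46 in pooled and 8.66, 8.44 and 8.74 in single S-shaped bodies, and 5.28, 5.62 and 5.22 in collecting duct. S-shaped bodies stood clear of both other groups, 4.48-fold above renal vesicles in pools (log2 change 2.16, SE 0.24, adjusted p = 7.54e-05 in limma) and 9.45-fold above collecting duct in single structures (3.24, SE 0.23, adjusted p = 3.72e-05). Cox7a1, its heart and muscle counterpart, was above background on no array, and neither was Cox6a2, the muscle counterpart of Cox6a1. The third relative, Cox7a2l, was lower than in collecting duct in all 3 nephron groups, by -0.55 in renal vesicles (adjusted p = 0.0186), -0.56 in pooled (adjusted p = 0.0105) and -0.65 in single S-shaped bodies (adjusted p = 0.0111), comparisons that share the collecting duct arrays. It read 8.92, 9.33 and 9.30 in renal vesicles, 9.21, 9.10 and 9.19 in pooled, 9.08, 9.16 and 9.01 in single S-shaped bodies, and 9.84, 9.83 and 9.53 in collecting duct, so that the nephron groups overlapped each other below it.

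Cox5b, a subunit on the matrix side, rose by 1.18 from renal vesicles to pooled S-shaped bodies (SE 0.25, adjusted p = 0.00373 in limma). Its arrays read 7.21, 6.63 and 7.79 in renal vesicles, 8.49, 8.30 and 8.37 in pooled and 9.42, 8.52 and 8.49 in single S-shaped bodies, and 6.64, 6.64 and 6.68 in collecting duct. Cox6a1 and Cox7b rose from renal vesicles to pooled S-shaped bodies as well, by 0.68 (SE 0.12, adjusted p = 0.00150) and 0.83 (SE 0.20, adjusted p = 0.00750). Cox8c, known as a testis isoform, rose by 0.68 in that comparison (SE 0.20, adjusted p = 0.0193) and overlapped collecting duct. Cox6b2, also known from testis, was lower on all pooled S-shaped body than on all renal vesicle arrays, at -1.80, but varied so widely (SE 0.73) that it did not pass (adjusted p = 0.0762), and a further probe set of it read 0.19 (adjusted p = 0.6). Cox5a fell by 1.37 in single S-shaped bodies against collecting duct (SE 0.42, adjusted p = 0.0347), with no array of either group above background and its other probe set at -0.33 (adjusted p = 0.555). Cox4i1, Cox6b1, Cox6c and Cox8b did not pass in any comparison, and Cox8a was above background on no array.

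ATP synthase showed its largest changes in the small subunits of the membrane part, which help to join the enzyme into dimers. From renal vesicle to pooled S-shaped body all 5 small membrane subunits rose, with a median change of 2.51, as did 2 of 3 peripheral stalk subunits, 1 of 3 tested subunits of the F1 head and central stalk and 0 of 2 c-ring genes. Against collecting duct, 4 of the 5 small membrane subunits were higher in pooled and 4 of 5 in single S-shaped bodies. The shares over all probe sets were 18.2% and 16%. Atp5j2, subunit f, did not pass in either comparison.

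Atp5mpl, a small proteolipid of the membrane part, was at 2.85 on all collecting duct arrays, at 4.83, 5.41 and 2.85 in renal vesicles, 6.99, 6.94 and 6.98 in pooled and 7.36, 6.61 and 6.97 in single S-shaped bodies. Every S-shaped body array exceeded background and no collecting duct array did. Pooled S-shaped bodies were at least 4.81-fold (adjusted p = 0.000112 in limma) and single ones at least 4.85-fold above collecting duct (adjusted p = 8.1e-05), and pooled ones rose by 2.60 log2 units over renal vesicles (SE 0.52, adjusted p = 0.00266). Atp5k, subunit e, was likewise above background on no renal vesicle or collecting duct array. It read 2.85 on all renal vesicle arrays and 2.85, 2.85 and 3.29 in collecting duct, against 5.30, 5.81 and 5.71 in pooled and 3.90, 5.73 and 5.54 in single S-shaped bodies. The bound for pooled S-shaped bodies was at least 2.08-fold over renal vesicles (adjusted p = 4.37e-05) and at least 1.87-fold over collecting duct (adjusted p = 3.71e-05), and single structures were at least 1.28-fold over collecting duct (adjusted p = 0.0171), with single replicate 3 under background. Atp5k, counted above among the small membrane subunits that rose, passed the signal filter only through S-shaped body arrays, as the other groups were at or near the floor. Its adjusted p-values therefore add no support to the values. The same holds for Atp5mpl in single S-shaped bodies against collecting duct.

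Atp5md, which is needed for dimers of the enzyme, was measured well on all arrays: 8.42, 7.99 and 8.92 in renal vesicles, 10.81, 10.84 and 11.21 in pooled and 11.09, 11.02 and 10.89 in single S-shaped bodies, and 8.67, 8.82 and 7.97 in collecting duct. The S-shaped body groups overlapped each other, clear of the rest. Pools were 5.70-fold above renal vesicles (log2 change 2.51, SE 0.26, adjusted p = 5.03e-05 in limma), and single structures exceeded collecting duct by 2.51 (SE 0.22, adjusted p = 0.000111). Atp5l, subunit g, rose by 0.58 from renal vesicle to pooled S-shaped body (SE 0.17, adjusted p = 0.0225), and its other probe set by 1.22 (adjusted p = 0.00525). Atp5j2 rose by 1.39 in that comparison (SE 0.33, adjusted p = 0.00747).

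In the peripheral stalk, Atp5j formed a series. It read 8.11, 8.19 and 7.59 in collecting duct, 8.67, 8.85 and 8.66 in renal vesicles, 9.63, 10.02 and 10.02 in pooled and 10.39, 9.70 and 10.01 in single S-shaped bodies. Renal vesicles exceeded collecting duct by 0.76 (SE 0.18, adjusted p = 0.0117), and pooled S-shaped bodies exceeded renal vesicles by 1.16 (SE 0.18, adjusted p = 0.000611, both limma), with no overlap between the 3 levels. Atp5pb rose from renal vesicle to pooled S-shaped body by 0.76 (SE 0.17, adjusted p = 0.00540) and did not pass against collecting duct, at 0.27. Atp5o did not pass in any comparison. Of the F1 subunits, Atp5a1, the alpha subunit, was at 11.76, 11.72 and 11.65 in renal vesicles, 11.48, 11.70 and 11.49 in pooled and 11.24, 11.51 and 11.62 in single S-shaped bodies, and 11.81, 11.70 and 11.82 in collecting duct. Its change was -0.16 from renal vesicle to pooled S-shaped body (95% interval -0.36 to 0.04), but scaling to the 75th percentile gave -0.62 with an adjusted p of 0.00249. Atp5c1, the gamma subunit of the central stalk, rose by 0.34 (SE 0.12, adjusted p = 0.0431) and its other probe set by 0.80 (adjusted p = 0.00229), which was also lower in renal vesicles than in collecting duct, at -0.66 (adjusted p = 0.0115). Atp5d, the delta subunit, did not pass, and its probe sets disagreed in single S-shaped bodies against collecting duct. The chosen one read -0.14, and the others 0.82 (adjusted p = 0.0169 in limma), -1.10 (adjusted p = 0.0721), 0.10 and 0.31. The c-ring genes Atp5g1 and Atp5g2 did not pass in any comparison.

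**Figure D5:**
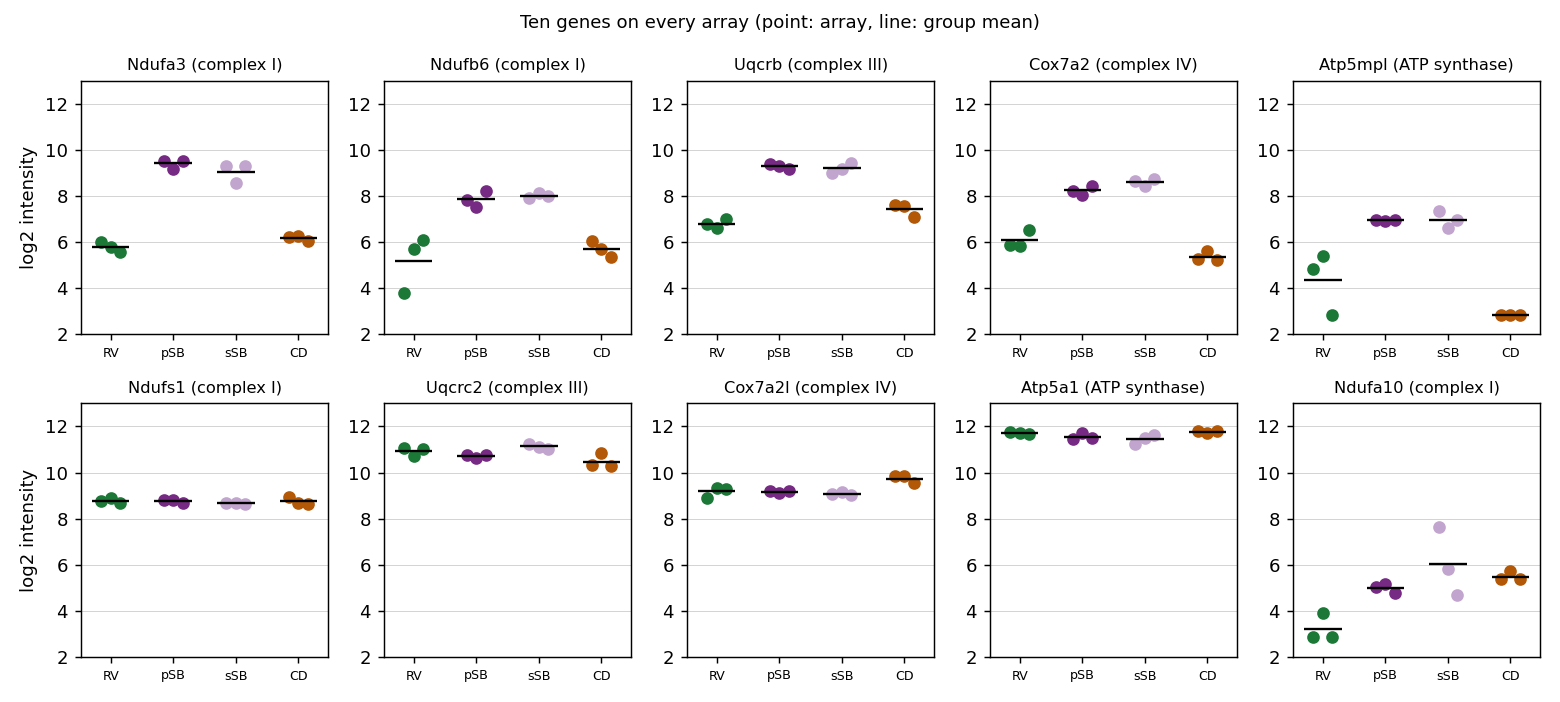
Log2 intensity (vertical axis, the same in all panels) of 10 genes on every array of renal vesicle (RV), pooled S-shaped body (pSB), single S-shaped body (sSB) and collecting duct (CD), with a line at each group mean. In the upper panels the S-shaped body arrays lie above the others relative to all probe sets; in the lower ones Ndufs1 and Atp5a1 stay within 1 log2 unit over all arrays, Cox7a2l is highest in collecting duct and Ndufa10 lowest in renal vesicle.

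Some probe sets cannot be tied to 1 transcript with certainty. The manufacturer's suffix for a sequence family marked the chosen probe sets of 12 genes, among them Ndufa3, Ndufb5, Uqcrb, Cox6a1 and Atp5md, and 7 of these 12 rose from renal vesicle to pooled S-shaped body. Those of Ndufa5 and Sdhb, which both rose as well, bear the suffix s for probes that can match several transcripts. Of the 44 tested genes whose probe sets bear no suffix of any kind, 23 rose in that comparison, so the changes were not limited to family probe sets. Processed pseudogenes are known for many respiratory chain genes, and the files do not show how far they add to a signal.

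Other mitochondrial genes did not follow the subunits as a block. Of 13 measured electron carriers and assembly factors, 9 rose and 1 fell from renal vesicle to pooled S-shaped body, with a median of 0.74. This list also holds Cyc1 of complex III and Ndufab1 of complex I, subunits that the symbol rule left out. Neither passed in that comparison, at -0.22 and -0.40 (adjusted p = 0.136 and 0.114 in limma). The shares over all probe sets in that comparison, 17.5% higher and 19.2% lower, also stand beside the next 3 lists, whose counts lay nearer to them. Those that rose included Etfb, a subunit of the electron transfer flavoprotein (2.05, adjusted p = 0.00105), Cox17, a copper chaperone for complex IV (1.10, adjusted p = 0.00071), the assembly factor Ndufaf1 (1.20, adjusted p = 0.00320) and Cycs, somatic cytochrome c (0.52, adjusted p = 0.0280). Lrpprc, which stabilizes mitochondrial messenger RNAs, fell by 3.04 (adjusted p = 2.29e-06 in limma), from 9.43 in renal vesicles to 6.40 in pooled S-shaped bodies. Against collecting duct the same list had 4 higher and 1 lower in pooled and 3 higher and 2 lower in single S-shaped bodies, and in renal vesicles 0 higher and 2 lower (Etfa and Etfdh). Over all probe sets, 18.2% were higher and 20% lower than in collecting duct in pooled S-shaped bodies, 16% and 17.9% in single ones, and 12.3% and 11.6% in renal vesicles. These shares also stand beside the collecting duct counts of the next 3 lists.

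Of the 18 tested genes of the tricarboxylic acid cycle and pyruvate dehydrogenase, 2 rose and 4 fell from renal vesicle to pooled S-shaped body, with a median of -0.08. Dlst, a subunit of the 2-oxoglutarate dehydrogenase complex, fell by 1.51 (adjusted p = 2.94e-05) and Mdh2, mitochondrial malate dehydrogenase, by 0.81 (adjusted p = 0.000125), while Sucla2, a subunit of succinyl-CoA synthetase, rose by 0.79 (adjusted p = 0.00122). Against collecting duct, 3 were higher and 4 lower in pooled, 1 higher and 5 lower in single S-shaped bodies, and 2 higher and 2 lower in renal vesicles. Pdk1, a kinase that inhibits pyruvate dehydrogenase, was lower than in collecting duct in renal vesicles (-3.11, adjusted p = 5.21e-06), pooled (-2.87, adjusted p = 5.96e-06) and single S-shaped bodies (-2.61, adjusted p = 8.26e-05).

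Among 15 regulators of mitochondrial gene expression, 3 rose and 3 fell from renal vesicle to pooled S-shaped body. Gabpa, the DNA-binding subunit of GABP, rose by 0.65 (SE 0.16, adjusted p = 0.00835 in limma) and was also higher in pooled S-shaped bodies than in collecting duct, by 1.00 (adjusted p = 0.000593). Tfb2m, a mitochondrial transcription factor, fell by 1.28 (adjusted p = 0.00224), and Nfe2l2 rose by 1.07 (adjusted p = 0.000819). Polrmt, the mitochondrial RNA polymerase, was the only gene of the 4 lists called between single and pooled S-shaped bodies. It was above background on all single and no pooled arrays, with means of 7.03 and 2.85 (adjusted p = 0.0235 in limma). As the pooled group was at the floor, Polrmt passed the signal filter only through the single group. Its adjusted p therefore adds no support to the values. Against collecting duct, 2 regulators were higher and 4 lower in pooled, 3 higher and 2 lower in single S-shaped bodies, and 2 higher and 2 lower in renal vesicles.

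For carriers, porins and import, 23 genes were tested in the comparison of renal vesicles with pooled S-shaped bodies, of which 4 rose and 4 fell, with a median of -0.01. Slc25a1, the citrate carrier, rose by 1.45 (adjusted p = 0.00298) and Vdac2, a porin of the outer membrane, by 0.61 (adjusted p = 0.00386), while Tomm70a, an import receptor, fell by 0.78 (adjusted p = 0.00978) and the chaperone Hspd1 by 0.47 (adjusted p = 0.00697). Against collecting duct, 7 were higher and 1 lower in pooled, 5 higher and 0 lower in single S-shaped bodies, and 6 higher and 0 lower in renal vesicles.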

How the data were processed

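Per the labels, RNA was extracted with TRIzol, amplified in 2 rounds and hybridized to 12 arrays, 3 per group. The values the authors deposited are linear intensities that can be negative; GCOS is named in the submitters' processing notes, with the summary method and any scaling not given in the sources used here. The arrays' median intensities differed up to 17.8-fold, and 0 pairs of arrays were identical. The number of arrays limits the precision.

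The 12422 probe sets (66 controls left out) were quantile normalized, floored at 0, increased by a pseudocount of 7.22 (25% of the median) and put on the log2 scale. Probe sets under the 25th percentile of the mean in a fit were left out. Tests used limma 3.58.1 under R 4.3.3 (trend, two-sided, Benjamini-Hochberg over all probe sets, call at 0.05), on the 9 arrays of renal vesicle, pooled S-shaped body and collecting duct or, for single S-shaped bodies, on the 6 arrays of the groups compared. The procedure was tested on simulated data. A probe set was above background where its deposited intensity exceeded its array's 5th percentile with the sign turned; folds against a group wholly under that level are bounds.

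The genes, gene lists and tests were chosen with earlier results of these data known. Genes were named if called in any comparison, if their change was the largest of a complex, if they were isoform pairs, if their probe sets disagreed, or if called in a pathway list, from which a selection is printed. Same-numbered arrays did not deviate together (r from -0.0897 to 0.0426), and samples were not paired in the main fits. With only 1 to 3 shared numbers in a comparison, these values cannot show whether samples share an embryo. Alternatives varied pseudocount, scaling, filter, trend, arrays in the fit, replicate block and probe set rule. RefSeq promoters (GRCm38.p6) held 55 of the 68 genes; 13 were not matched.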

Additional observations from a re-analysis of the deposited data

How the results depend on the processing

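The counts of called genes in the 3 comparisons of S-shaped bodies with renal vesicle or collecting duct kept within 1.5 times of 33, 35 and 35 under both other pseudocounts, 75th percentile scaling, both other filters, no trend, all 12 arrays in 1 fit and averaging of each gene's probe sets. Leaving out 1 array at a time gave 27 to 33 genes for pooled S-shaped body against renal vesicle, 29 to 35 for pooled and 28 to 37 for single S-shaped body against collecting duct, 3 to 8 for renal vesicle against collecting duct and 0 for single against pooled. For renal vesicle against collecting duct (5 genes), 8 were called without renal vesicle replicate 3 or without replicate 4, and 3 without collecting duct replicate 1 or without replicate 2.

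On the deposited scale the counts were 55, 23 and 60 for renal vesicle against collecting duct, pooled S-shaped body against collecting duct and pooled S-shaped body against renal vesicle, and 63 for single against pooled, where the median probe set differed by -1.39, -0.46, 0.94 and -2.20. With that median removed before the test, an alternative added after seeing the data, they were 3 for renal vesicle against collecting duct and 12 for single S-shaped body against collecting duct. Scaling to the 75th percentile gave 10 for renal vesicle against collecting duct and 3 for single against pooled (Cox6a1, Ndufb10 and Uqcrc2, all higher in single). No trend gave 3 and 1, no filter 1 for single against pooled (Uqcr11 in both), and all 12 arrays 3 (Atp5l, Cox7b and Ndufb10). Atp5a1 turned from -0.06 to 0.53 (adjusted p = 0.00984) for renal vesicle against collecting duct under 75th percentile scaling, and Sdha from -0.00 to 0.92 (adjusted p = 0.0417) for single S-shaped body against collecting duct without single replicate 3, in a range from -0.52 to 0.92 over the arrays left out. Beyond the scaling and the arrays left out, the cause of these changes was not tested.

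With the replicate number as a block, 2 genes were called for renal vesicle against collecting duct, 34 for pooled S-shaped body against collecting duct and 19 for pooled S-shaped body against renal vesicle; the fits for renal vesicles use only 2 shared numbers. Single S-shaped bodies share 1 number with pooled ones and 1 with collecting duct, so no block could be fitted in their comparisons. Signals near background, 3 arrays a group and 2 rounds of amplification limit what small changes can be seen: the 95% intervals reached, in the median, 0.48 to 0.57 log2 units to either side.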
